A study of Mus musculus with 18 samples.

Results

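The endothelium of tumour-draining lymph nodes (LNs) was compared with the endothelium of the tumour itself. High endothelial cells (HECs) from LNs of mice bearing EO771 tumours, 3 libraries, were set against blood endothelial cells (BECs) from the EO771 tumours, 3 libraries, and every gene with a mean deposited value of at least 10 over the 12 endothelial libraries of the series entered the comparison, which left 18511 of 55401 genes. The series holds 18 RNA sequencing libraries in all, of which the 6 from HECs and BECs of mice without tumours are used here for reference. EO771 is a mouse mammary carcinoma line of C57BL/6 origin, and it was injected into the mammary fat pad of wild-type female C57BL/6 mice. HECs came from inguinal LNs, whose tissue is labelled as lymph node metastases in the tumour-bearing group and as lymph node in the other. BECs came from the primary tumour, or from the fat pad where there was no tumour. Both cell types were sorted as CD45- CD31high cells, HECs as those that bound the PNAd antibody and BECs as those that did not. Tumours were digested with other enzymes and for longer than LNs, so cell type, tissue and digestion cannot be told apart in any difference given below. The labels do not say whether animals were pooled or whether HEC and BEC libraries of equal number came from the same mice, so the p-values measure the spread between these libraries only.

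High endothelial venules are the vessels through which naive lymphocytes leave the blood and enter an LN. Their tall endothelial cells carry sulphated and fucosylated sugars, bound by L-selectin and by the PNAd antibody, on scaffolds such as the mucin Glycam1. Tumour vessels form under angiogenic growth factors, are often leaky and poorly covered by pericytes, and lay down a basement membrane that differs from that of resting vessels. PNAd depends on the enzymes encoded by Chst4 and Fut7, so these genes belong to the sort and are a check of it rather than a finding.

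Both groups had the endothelial transcripts Pecam1 and Cdh5 at high levels, and Glycam1 and Alox12 separated them. Glycam1 (chromosome 15, 103562759 to 103565081 in GRCm38), the mucin scaffold, gave 70900.0, 71579 and 69695 normalised counts in the 3 HEC libraries and 0 in each BEC library, which is at least 23575-fold higher when BECs are set at a floor of 3 normalised counts. Alox12 (chromosome 11, 70241457 to 70255353), the arachidonate 12-lipoxygenase, was at 73831, 71029.5 and 72131 in HECs and at 10.2, 44 and 42.7 in BECs, a log2 fold change of HECs over BECs of 11.11 ± 0.21 (SE). No library of either gene came near the other group. Glycam1 is a scaffold of the sugars used in the sort, and the paper took up Alox12 as the top-ranked gene of its own comparison of these cells. Neither separation is thus an independent check. The platelet endothelial adhesion molecule Pecam1 (chromosome 11, 106654217 to 106750628) was at 48650.0, 47860.2 and 48657 in HECs and 40818, 40945 and 41360.5 in BECs, and VE-cadherin, Cdh5 (chromosome 8, 104101625 to 104144511), at 44464, 43984 and 43552 and 61727, 61486 and 59225. Both junction genes differed by less than 2-fold, with log2 fold changes of 0.24 ± 0.04 and -0.47 ± 0.05, although their groups did not overlap. Among the other sugar enzymes, Chst4 was at 60244 ± 987 (SD, n = 3) in HECs and 0 in BECs, and the fucosyltransferase gene Fut7 at 66478, 65523 and 14255 in HECs and 7.16 ± 3.88 in BECs, so HEC replicate 3 was far below the other HEC libraries for Fut7. The sulphotransferase gene Chst2 went the other way, at 0 in every HEC library and 111, 134 and 154 in BECs, at least 44.4-fold lower in HECs, and the fucosyltransferase gene Fut4 was also lower, at 7.22 ± 9.3 against 47.6 ± 8.46. Ccl21a, a chemokine that high endothelium is known to make, was at 0 in all 3 HEC libraries and at 25, 27.9 and 60.2 in BECs, and lost its call without any BEC library, but it has near-identical gene copies whose reads can be dropped in counting.

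With an adjusted p under 0.05 (DESeq2's Wald test, Benjamini-Hochberg) and a change of more than 2-fold as the limits of a call, 4056 genes differed between LN HECs and tumour BECs. Of the 18446 genes with an adjusted p, 2081 (11.3%) were higher in HECs and 1975 (10.7%) were lower, while the median log2 fold change over all genes was 0.006 with quartiles at -0.52 and 0.59. The lower side held the larger differences, with 916 genes more than 8-fold lower and 404 more than 8-fold higher. In all, 30.9% of genes had every HEC library above every BEC library and 31.8% had the reverse, and 2003 of the higher and 1903 of the lower calls were among them. Groups that do not overlap, given for single genes below, are thus usual for a called gene and add little to its call. BECs were at or under the floor for 234 of the higher genes and HECs for 551 of the lower genes, for which the fitted folds give no size of difference. Protein-coding genes made up 1286 of the higher and 1745 of the lower calls. The totals of the deposited values were 56410964 to 65645173 in HEC and 72270838 to 79357993 in BEC libraries, with 21942 to 22818 genes detected. Libraries of one group correlated with each other at 0.985 to 0.988. This is Pearson's r of variance-stabilised values across the 13290 genes of higher mean level, and genes are not independent replicates.

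**Figure D1:**
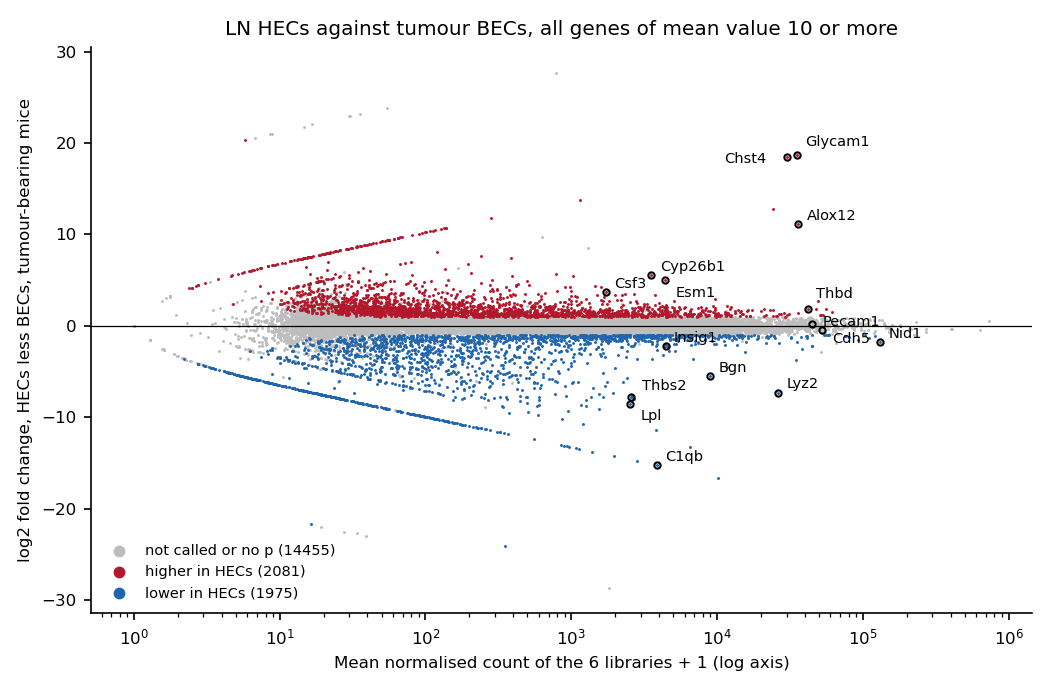
Log2 fold change of HECs over BECs in tumour-bearing mice for every gene compared, against the mean normalised count of the 6 libraries plus 1 on a log axis, with 2081 higher genes in red, 1975 lower genes in blue, and named genes circled. The curved lines of points at the left are genes at 0 in every library of one group, whose size of difference is set by the level in the other group.

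By the size of the test statistic the leading genes higher in HECs included Rgs16, Alox12, Cyp26b1, mt-Rnr1, Msln, Nptx1, Thbd, Kctd4 and Ttc9. Rgs16, a regulator of G protein signalling, was at 17164 ± 16.4 in HECs and 2264 ± 28.6 in BECs, a log2 fold change of 2.92 ± 0.04. Msln, which encodes mesothelin, was at 8753 ± 232 against 1307 ± 62.9, and Nptx1, a pentraxin, at 19120.1 ± 507 against 5338 ± 270.4. Kctd4 was 4.20 ± 0.11 and Ttc9 1.72 ± 0.05 higher on the log2 scale. By the difference in mean normalised count the leaders, beside Glycam1, Alox12, Chst4 and Fut7, included the ribosomal RNA genes mt-Rnr1, of the mitochondrion, at 86181 ± 130.0 against 12799 ± 391, and CT010467.1, at 90768 ± 1435 against 32610.1 ± 3547, and then Thbd, which is described with coagulation. The nuclear RNA gene Neat1 was at 75243 ± 1034 against 20499 ± 827 and the chromatin protein gene Hmga2 at 74075 ± 595 against 33329.9 ± 1586. Among the largest folds with a lower group over 10 normalised counts, Krt20, Stfa2, Klk8, Esm1 and Ankrd37 had log2 fold changes of 5.50 ± 0.26, 5.41 ± 0.26, 4.69 ± 0.34, 5.0 ± 0.18 and 4.90 ± 0.21.

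On the lower side the leading genes by test statistic included Ogdh, Insig1, Bgn, Nptxr, Acly, Thbs2, Fads2 and AI506816, of which Ogdh, Insig1, Acly and Fads2 belong to the metabolic lists given below. By the difference in mean level nidogen 1, Nid1, a linker in the basement membrane, came first. Lcn2, a lipocalin that binds bacterial iron carriers, came next, at 63126, 60909 and 61074 in HECs and 165610.0, 168879 and 146025 in BECs. The lysosomal protease genes Ctsd and Ctsb and the saposin precursor gene Psap were at log2 fold changes of -1.57 ± 0.10, -1.04 ± 0.10 and -1.08 ± 0.10, and the actin crosslinker gene Flna at -1.22 ± 0.08. Without BEC replicate 1, Ctsb fell short of the 2-fold limit. Nptxr, the neuronal pentraxin receptor gene, was at 5627 ± 117 against 13746 ± 258, and so went against Nptx1. By fold the leaders were Lpl, Ctss, Acta2, Igfbp7, Thbs2, Slc40a1, Laptm5, Csf1r, Ctsc and Lyz2, all at log2 fold changes from -8.53 ± 0.40 to -7.32 ± 0.36, and 6 of these 10, Ctss, Slc40a1, Laptm5, Csf1r, Ctsc and Lyz2, are known from macrophages.

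A set of 806 marker and pathway genes was placed in 52 lists, of which 747 were tested, and 91 of those were higher and 200 lower. Over all genes 11.3% were higher and 10.7% lower, and a count near these shares does not set a list apart. Markers of other cell types are given first because several moved with the comparison. Of 14 myeloid markers 12 were lower in HECs and 1 was higher, with a median log2 fold change of -7.42, and their summed CPM, counts scaled by library total, was 362 to 378 in HEC libraries and 1735 to 2432 in BEC libraries. Lyz2 was at 222, 417 and 338 in HECs and 61605, 56093 and 38199 in BECs, the complement gene C1qc at 2.79 ± 2.43 and 7587 ± 2363, and C1qa, C1qb and the macrophage receptor gene Adgre1 at 0 in every HEC library against 5655 ± 1599.6, 7712 ± 1979 and 1789.7 ± 757 in BECs. Cd68 was lower in HECs at 23315 ± 744 against 59723 ± 3027, and it made up most of the HEC sum. Without tumours Cd68 was higher in HECs, at 33269 ± 858 against 7514 ± 448. The pan-leukocyte gene Ptprc, whose product CD45 was used to exclude leukocytes, was at 1.54 ± 2.67 against 662 ± 234. S100a8, found in neutrophils, was the marker that was higher, at 199.7 ± 23.8 against 36.4 ± 10.6. Fewer cells of a type and less RNA per cell cannot be told apart in bulk samples, and the part of leukocyte RNA in the genes lower in HECs was not tested.

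Fibroblast, pericyte and epithelial markers were likewise lower in HECs. Of 9 fibroblast markers 5 were lower and 1 higher, with summed levels of 11.4 to 13.4 CPM in HECs and 29.5 to 82.6 in BECs, and the gene that was higher, Fap, lost its call without HEC replicate 1 or BEC replicate 1. Of 9 pericyte and smooth muscle markers 7 were lower, with smooth muscle actin, Acta2, at 15, 21.7 and 6.64 in HECs and 2334, 3437 and 4039 in BECs. The PDGF receptor gene Pdgfrb was at 202 ± 29.8 against 1448 ± 332 and Tagln at 55.2 ± 29.4 against 1317 ± 386. Epithelial markers were lower for 6 and higher for 1 of 8, but BEC replicate 3 held 122 CPM of them while the other BEC libraries held 23.2 and 26.9 and the HEC libraries 33.2 to 35.5. Without that library 10 genes of the list had an adjusted p, 5 of them lower and 1 higher, and their median was -2.0, against -3.84 for the same genes with all libraries, and over all genes the counts became 1961 higher and 1876 lower. In vehicle-treated EO771 cell cultures of the same series Krt18 and Krt8 were at 2109.8 and 919.5 CPM, against 9.68 and 12.1 in tumour BECs, and Krt8 lost its call without BEC replicate 3. Not every gene of this list was higher in those cultures than in tumour BECs, and the part of tumour cells was not tested. Krt19 was higher in HECs, at 2021 ± 80.7 against 868 ± 184.

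Markers of the remaining cell types were few or low. B cell markers were lower for 4 of 7, a count that fell to 2 without any 1 of the BEC libraries, and they summed to 4.22 to 4.63 CPM in HECs and 17 to 17.5 in BECs. The T cell list had 2 genes above the filter, of which Cd4, also made by macrophages, was at 0 in HECs and 2164 ± 668 in BECs. The platelet factor gene Pf4 was lower at 74 ± 19.6 against 1371 ± 221, as were Gp9 and Gp1ba, so that 3 of 4 platelet genes were lower. Cfd, the adipsin gene and the 1 adipocyte marker tested, was lower at 1.54 ± 2.67 against 60.1 ± 18.6 but lost its call without any BEC library. Lymphatic endothelium had 4 lower markers of 8, among them podoplanin, Pdpn, at 88.2 ± 37 against 1899 ± 277, and 2 without BEC replicate 2, whereas the hyaluronan receptor gene Lyve1 was higher in HECs at 15552, 15051 and 15650.0 against 3676, 3337 and 3161.

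**Figure D2:**
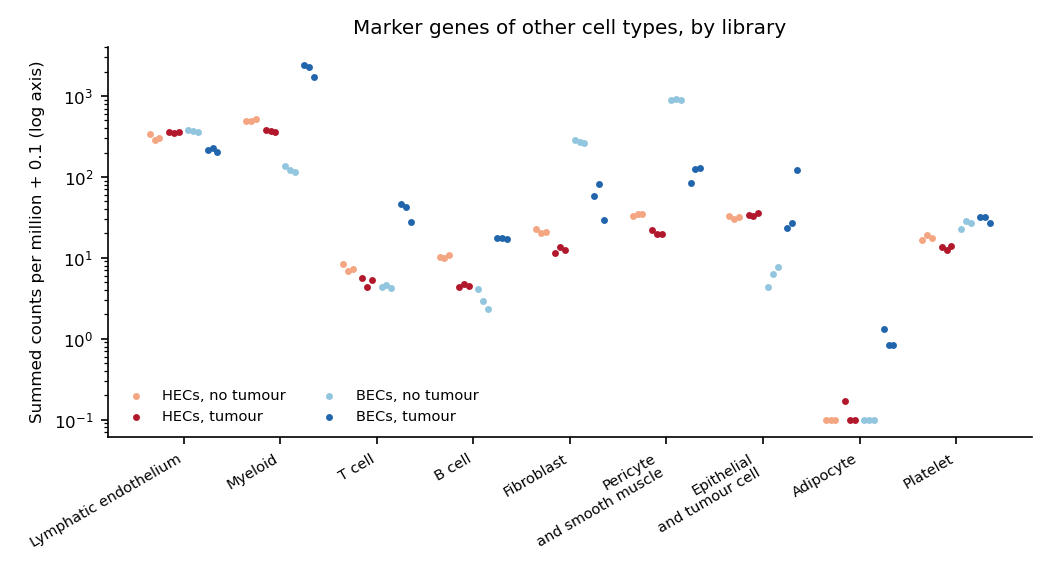
Summed CPM plus 0.1, on a log axis, of marker genes of other cell types in each of the 12 endothelial libraries, 1 point a library. Tumour BECs hold the highest myeloid, T cell and B cell sums, BECs of mice without tumours the highest fibroblast and pericyte sums, and 1 tumour BEC library stands above the other libraries for epithelial markers.

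Endothelial subtype genes did not follow 1 direction. Of 18 pan-endothelial genes 2, Egfl7 and Sox18, were higher and none lower (11.3% and 10.7% of all genes), with Egfl7 at 23994 ± 649 against 7974 ± 224. The high endothelium list held 4 higher genes, which included Spns2, the transporter that exports sphingosine 1-phosphate, at 4704, 3716 and 4534 in HECs and 1356, 1475 and 1484 in BECs, and 2 lower genes of 13. Arterial genes were lower for 3 of 9, Unc5b, Fbln5 and Hey1, but Unc5b alone stayed called without BEC replicate 2, and Hey1 lost its call without BEC replicate 1 too. Unc5b, the netrin receptor gene, was at 1013 ± 32.4 against 4352 ± 816. Capillary genes were split, 3 higher and 3 lower of 8. The water channel gene Aqp1 and Gpihbp1, the anchor of lipoprotein lipase, were higher at log2 fold changes of 1.5 ± 0.14 and 1.57 ± 0.51, while Lpl itself was at 17.3, 14.8 and 8.85 in HECs and 7085, 5145 and 2936 in BECs. Of 8 vein genes the venous transcription factor gene Nr2f2 was higher, at 5703 ± 995 against 2474 ± 474, and Apoe, also made by macrophages, was lower, at 986 ± 158 against 22440.5 ± 5541, with the myeloid markers given above moving the same way.

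Genes of cholesterol synthesis were lower in HECs. Cells make cholesterol from acetyl-CoA through the mevalonate pathway and take it up from lipoproteins, and both arms are switched on together by the transcription factor SREBP2. Of 24 tested genes of this list 20 were lower in HECs and none was higher, with a median log2 fold change of -1.86 against 0.006 over all genes. Insig1, whose product holds SREBPs back and is itself their target, was at 1559.6, 1649 and 1575 in HECs and 7393, 7478 and 6969 in BECs, a log2 fold change of -2.19 ± 0.06. The squalene epoxidase gene Sqle was at 2255, 2169 and 1838 and 8375, 8466 and 8266, with a log2 fold change of -2.0 ± 0.08 and an adjusted p of 2.97e-129. Cyp51, which encodes the lanosterol demethylase, was at 2936, 3179.5 and 3513 against 11171, 11109 and 12246. The groups lay apart for all 3 genes. Early and late enzymes moved alike. Hmgcs1, Mvk, Pmvk, Mvd, Idi1 and Fdps, from the mevalonate part, ranged from -1.44 ± 0.19 to -2.75 ± 0.12, and Fdft1, Sqle, Lss, Cyp51, Msmo1, Nsdhl, Hsd17b7 and Dhcr7, from the squalene and sterol part, from -1.22 ± 0.09 to -2.77 ± 0.14. Srebf2, which encodes SREBP2, was at 4068 ± 149 against 15612 ± 1468. In 23 of the 24 every HEC library lay below every BEC library, against 31.8% of all genes. Among the 4 genes that did not pass the rule were Ebp, Tm7sf2 and Sc5d, at -0.99 ± 0.09, -0.72 ± 0.23 and -0.47 ± 0.11.

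Fatty acid synthesis moved in the same direction as cholesterol. Of 14 tested genes 8 were lower and none higher, with a median of -1.09. Acly, the citrate lyase that makes cytosolic acetyl-CoA, was at 9640.4, 9109 and 9174 in HECs and 23307, 23198 and 23862 in BECs, and Fasn, the fatty acid synthase, at 18825, 14754 and 15194 and 54238, 52946 and 54873. Neither gene had overlapping groups. The desaturase gene Fads2 was at 5181, 5016 and 4943 against 21053, 22135 and 23658, with a log2 fold change of -2.14 ± 0.06 and an adjusted p of 3.58e-241. Scd1 and Acss2 were at -2.03 ± 0.09 and -2.05 ± 0.09. Scd2 had the largest log2 fold change of the list, -3.72 ± 0.63, but varied between libraries, at 6335, 6428 and 1957 in HECs and 85933, 25525 and 82543 in BECs. Of the uptake and oxidation genes, 4 were lower and 1 higher of 18. The lower ones were all of uptake, namely Lpl, the scavenger receptor gene Cd36 at 9.19 ± 5.22 against 2495 ± 926, the fatty acid binding protein gene Fabp5 at 407 ± 38.8 against 4356 ± 489.8, and Slc27a4 at -1.14 ± 0.10, and no gene of the oxidation enzymes themselves was called. Lpl and Cd36 are also known from macrophages, whose markers moved with them.

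**Figure D3:**
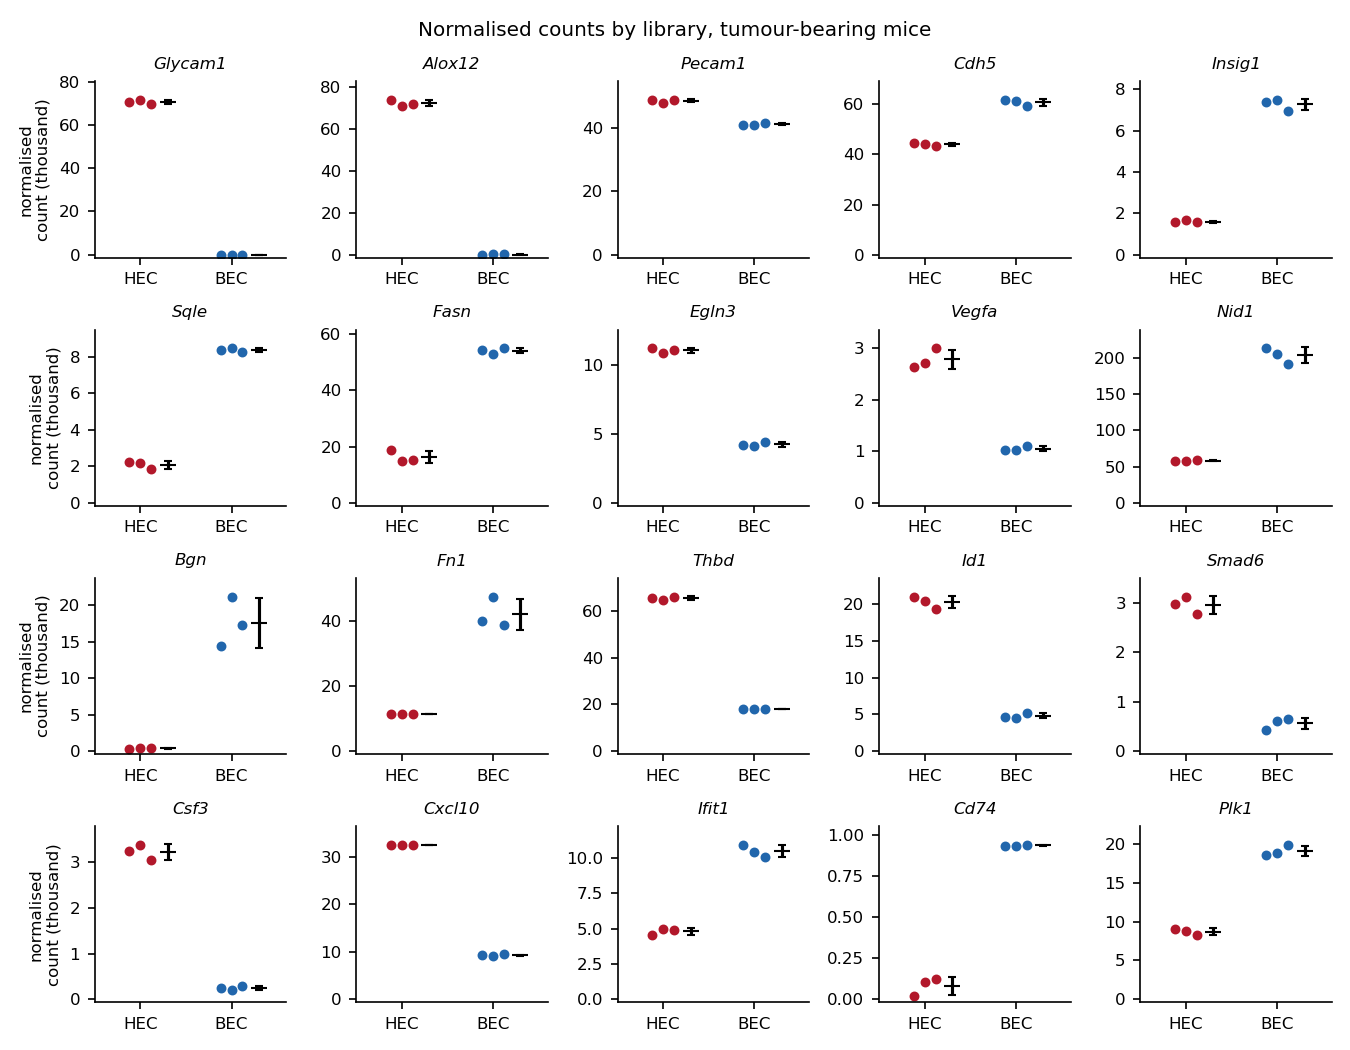
Normalised counts of 20 genes in the 3 HEC (red) and 3 BEC (blue) libraries of tumour-bearing mice, with the mean and SD of each group in black at its right. Every axis starts at 0, and in each panel all libraries of one group lie above all libraries of the other.

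Genes that respond to low oxygen were higher in HECs. In low oxygen the factor HIF-1 escapes degradation and binds the core sequence ACGTG in its target genes. Of 15 hypoxia genes 11 were higher and 1 lower, with a median of 1.38. The HIF prolyl hydroxylase gene Egln3 was at 11207, 10875 and 11081 in HECs and 4214, 4091 and 4405 in BECs, a log2 fold change of 1.38 ± 0.08. Vegfa, the main angiogenic growth factor, was at 2629.7, 2722 and 3001 and 1020.3, 1017 and 1108, and the peptide gene Adm at 7058, 6872 and 6844 and 2191, 2204 and 2122. Ankrd37 had the largest change, at 958, 898 and 1016 against 32.5, 25.4 and 38.4, a log2 fold change of 4.90 ± 0.21. All HEC libraries stood above all BEC libraries for these 4 genes. Ndrg1, Pdk1, Ddit4, Bnip3, Higd1a, Hilpda and Ero1l made up the rest of the higher genes, from 1.13 ± 0.11 to 1.6 ± 0.16. The carbonic anhydrase gene Car12 was lower, at 9.48 ± 3.69 against 58 ± 17.2, and its relative Car9, known as a strong hypoxia target, did not pass, at 348 ± 25.4 against 304 ± 31.2.

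Few glycolysis genes were called, 1 higher and 2 lower of 21 (11.3% and 10.7% of all genes), with a median of 0.11. All HEC libraries lay above all BEC libraries for 11 of them and below for 6 (30.9% and 31.8% of all genes). Their summed levels were 11253 to 11642 CPM in HECs and 7753 to 8258 in BECs. The lactate dehydrogenase genes went opposite ways, Ldha at 71538, 72700.2 and 67953 in HECs and 27485, 31180.2 and 32379 in BECs and Ldhb at 4.62, 18.7 and 0 and 238, 342 and 288. The glucose transporter gene Slc2a3 was lower at -3.22 ± 0.74, while Slc2a1 and Pfkl, at 0.67 ± 0.10 and 0.94 ± 0.08, stayed within 2-fold. Without HEC replicate 3 or BEC replicate 3 the count of higher glycolysis genes was 2.

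Promoter sequences of these lists were read from RefSeq for GRCm38.p6, the 250 bases before the start of each gene, and searched on both strands. ACGTG was found in 7 of 13 hypoxia genes (53.8%) and 8 of 20 glycolysis genes (40%), against 16.6% of all 27025 promoters and 20.8% of the 11950 promoters of genes compared here. The promoters of Ankrd37, Bnip3, Ddit4, Egln3 and Ldha, the genes of both lists that hold it and were called higher in HECs, are shown, each written 5′ to 3′ towards the gene with ACGTG or its complement CACGT in capitals. Genes not called higher also hold the letters, among them Car9 and Slc2a1, and no match was found for Vegfa or Adm, which were higher. Promoters were read for 13 of the 15 hypoxia genes. A match is a description of these letters and not a binding site.
Ankrd37, chr8:45999851-46000100, minus strand: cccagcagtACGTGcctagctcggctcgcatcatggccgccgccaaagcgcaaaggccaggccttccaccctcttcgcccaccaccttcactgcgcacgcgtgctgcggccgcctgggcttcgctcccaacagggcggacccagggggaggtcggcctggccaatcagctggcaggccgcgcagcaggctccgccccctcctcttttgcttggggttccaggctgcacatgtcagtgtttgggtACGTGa
Bnip3, chr7:138909507-138909756, minus strand: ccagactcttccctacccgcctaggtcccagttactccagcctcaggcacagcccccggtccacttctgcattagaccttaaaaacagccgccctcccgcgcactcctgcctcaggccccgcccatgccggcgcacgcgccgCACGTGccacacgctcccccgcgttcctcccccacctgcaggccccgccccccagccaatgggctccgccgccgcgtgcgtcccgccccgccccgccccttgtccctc
Ddit4, chr10:59951771-59952020, minus strand: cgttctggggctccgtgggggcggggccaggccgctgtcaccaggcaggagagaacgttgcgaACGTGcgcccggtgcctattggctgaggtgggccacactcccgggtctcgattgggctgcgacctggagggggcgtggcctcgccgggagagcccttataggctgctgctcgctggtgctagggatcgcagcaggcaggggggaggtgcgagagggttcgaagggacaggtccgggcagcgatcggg
Egln3, chr12:54203875-54204124, minus strand: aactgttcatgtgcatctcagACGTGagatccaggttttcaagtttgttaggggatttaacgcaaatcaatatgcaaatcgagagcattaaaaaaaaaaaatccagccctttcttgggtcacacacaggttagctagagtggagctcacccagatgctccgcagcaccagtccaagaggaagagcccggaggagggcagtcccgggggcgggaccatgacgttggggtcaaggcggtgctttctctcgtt
Ldha, chr7:46845554-46845803, plus strand: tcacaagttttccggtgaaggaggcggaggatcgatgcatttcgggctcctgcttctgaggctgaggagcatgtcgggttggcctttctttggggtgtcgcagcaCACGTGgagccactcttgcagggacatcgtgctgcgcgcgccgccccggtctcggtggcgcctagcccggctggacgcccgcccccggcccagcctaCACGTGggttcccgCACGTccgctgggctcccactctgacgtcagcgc
Shares of all promoters and of promoters of the genes compared follow in that order. The sterol element CACCCCAC was in 1 of 16 cholesterol promoters, that of Hmgcs1 (6.25% against 2.51% and 2.74%). The interferon element GAAANNGAA was in 10 of 20 type I interferon genes (50% against 7.16% and 6.32%), the E2F letters TTTCCCGC or TTTGGCGC in 5 of 21 replication genes (23.8% against 1.35% and 2.35%), and TTTGAA in 7 of 18 mitosis genes (38.89% against 16.3% and 11.1%).

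Mitochondrial metabolism differed in a few genes. In the tricarboxylic acid cycle list 3 of 25 genes (12%) were lower and none higher, against 10.7% and 11.3% of all genes, with a median of -0.43. Ogdh, the oxoglutarate dehydrogenase, was at 9411, 8827 and 8819.5 in HECs and 33499.7, 34783 and 34152 in BECs, a log2 fold change of -1.92 ± 0.05 and the largest test statistic of any gene lower in HECs. Pcx, the pyruvate carboxylase that refills the cycle, and the cytosolic isocitrate dehydrogenase gene Idh1 were at -2.24 ± 0.10 and -2.18 ± 0.14. Citrate synthase, Cs, was below the 2-fold limit at 24825 ± 239 against 38007 ± 859.9. No gene of the nuclear-encoded respiratory chain (40 tested), of the mitochondrially encoded chain (12) or of serine and folate metabolism (15) was called in either direction, and their medians were -0.15, 0.32 and 0.02. Of glutathione genes Gsta1, a glutathione transferase, was higher at 3005, 2987 and 3078 against 316, 366 and 318, and the peroxidase gene Gpx3 lower at 128 ± 64.5 against 982 ± 295, with 17 tested.

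Signalling lipids were split by pathway member. Eicosanoids are made from arachidonic acid by lipoxygenases, which give HETEs and leukotrienes, and by cyclooxygenases, which give prostaglandins. Of 14 genes 4 were higher and 5 lower. Besides Alox12, the epidermal lipoxygenase gene Aloxe3 was higher at 561 ± 18.1 against 158 ± 31.6, the prostacyclin synthase gene Ptgis at 296 ± 48.5 against 104 ± 22.1, and the inducible cyclooxygenase gene Ptgs2 at 8207, 7622 and 8098 in HECs against 2005, 2012 and 1731 in BECs. The constitutive cyclooxygenase gene Ptgs1 went the other way, at 282, 319.7 and 366 in HECs and 1842, 2361 and 2105 in BECs. The prostaglandin dehydrogenase gene Hpgd, Hpgds, Alox5 and Tbxas1 were lower too, and their log2 fold changes ran from -6.63 ± 1.17 to -2.93 ± 0.37. Of 9 retinoid genes 3 were higher and 3 lower. Cyp26b1, which degrades retinoic acid, was at 7015, 6945 and 6881 in HECs and 166, 157 and 128 in BECs, with a log2 fold change of 5.53 ± 0.11, and the binding protein gene Crabp2 was at 98.2 ± 12.5 against 24 ± 7.13. The receptor gene Rarb was at 41.9 ± 17 in HECs and at or under the floor in BECs. The lower genes included Crabp1, which was at 0 in every HEC library, and Aldh1a3, which lost its call without BEC replicate 3.

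Genes of the basement membrane, the sheet of laminin, type IV collagen, nidogen and perlecan under the endothelium, were mostly lower in HECs. Of 24 genes 13 were lower and 2 higher, with a median of -1.08. Nid1 was at 57912, 57430.3 and 58933 in HECs and 213587, 206258 and 192558 in BECs, a log2 fold change of -1.81 ± 0.07 with an adjusted p of 5.56e-129. The laminin chain gene Lamc1 was at 19609.9, 18698 and 19309 and 45419, 46415 and 43260.2, and perlecan, Hspg2, at 19013, 18678 and 18058 and 45259, 50494 and 42045. Groups did not overlap for any of the 3. Of the type IV collagen chain genes Col4a5 was at -1.89 ± 0.07, Col4a1 at -1.01 ± 0.12 and its neighbour Col4a2 short of the limit at -0.82 ± 0.06, and Col4a1 lost its call without HEC replicate 3 or BEC replicate 1. Col15a1 and Col18a1, whose products tie the membrane to the tissue, were at 5.23 ± 5.56 against 541 ± 137 and 175 ± 49.1 against 1870.2 ± 383. Of the higher genes Col4a4 lost its call without any HEC library and without BEC replicate 1 or 2, and the list then held 1 higher gene except without HEC replicate 3. The endothelial laminin chain genes Lama4 and Lama5 did not pass, at -0.13 ± 0.07 and -0.12 ± 0.07.

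Fibrillar collagens and their partners were lower in HECs by larger folds. Of 14 genes 11 were lower and 1 higher, with a median of -3.56. Col8a1 was at 257, 192 and 231 in HECs and 1849, 1847 and 1877 in BECs. Col1a1, the main collagen of fibroblasts, was at 9.24, 7.89 and 0 and 724, 744 and 180.5, and Col1a2 and Col12a1 at -5.13 ± 0.41 and -3.65 ± 0.30. Col2a1, a cartilage collagen, was the one that was higher, at 219.9 ± 51.8 against 60.5 ± 9.14. Fibroblast and pericyte markers moved with these genes, as given above, and their part in the differences was not tested. Of the enzymes that process collagen 3 were lower, Pcolce at 86.9 ± 5.23 against 3215 ± 747, P4ha3, and the lysyl oxidase gene Lox at 26.2 ± 22.9 against 653 ± 53.6. In contrast the lysyl oxidase relatives Loxl2 and Loxl4 were higher, Loxl2 at 4282, 4196 and 4473 in HECs and 2094, 1951 and 2046 in BECs and Loxl4 at 10076, 9502 and 9532 and 4136, 3905 and 4111, of 14 tested.

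Among proteoglycans and elastic fibre genes 8 were lower and 2 higher of 16. Biglycan, Bgn, was at 339, 405 and 404 in HECs and 14367, 21191 and 17291 in BECs, a log2 fold change of -5.52 ± 0.15. Fbln2 and the fibrillin gene Fbn1 were at -2.67 ± 0.13 and -3.95 ± 0.21. Of the higher ones, Mfap5 was at 230.1 ± 16.4 against 72.4 ± 17.3, while Prelp lay at the 2-fold limit (1.01 ± 0.21) and lost its call without HEC replicate 1 or 2 or BEC replicate 1 or 3. Matricellular genes, whose products sit in the matrix and signal to cells, were lower for 6 and higher for 4 of 16. Fibronectin, Fn1, was at 11397, 11307 and 11545 in HECs and 40172, 47625 and 38734 in BECs, and Thbs2, a thrombospondin that restrains vessel growth, at 26.6, 15.8 and 29.9 and 4502, 5979 and 4976. The related gene Thbs1 did not pass, at 31514 ± 644 against 28267 ± 1386. Higher in HECs were Ccn3 at 12503, 11848 and 12097 against 3779, 3554 and 3619, Spon2 at 513 ± 35 against 35.8 ± 1.62, and Tnxb and Vtn at 1.66 ± 0.13 and 5.51 ± 1.08.

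Matrix proteases and their inhibitors were called in both directions. Of 22 genes 3 were higher, or 5 without BEC replicate 2, and 8 were lower. The higher genes included Plat and Plau, which encode the activators of plasminogen. Plat was at 19177, 19288 and 19248 in HECs and 3684, 4472 and 4312 in BECs, Plau at 11777, 11508 and 11791 and 5623, 4449.8 and 4517. Neither gene had overlapping groups. The lower genes were metalloproteases, with the gelatinase gene Mmp2 at 160.1 ± 47.5 against 1295 ± 201, the macrophage elastase gene Mmp12 at 0 in HECs against 3939 ± 1159.8, and Adamts9 at -1.82 ± 0.17. Integrin genes were 3 higher and 4 lower of 18, with Itgb7, the partner of the gut-homing integrin chain, at 368 ± 17.5 against 130.3 ± 8.83, Itga2 and Itga10 at 1.40 ± 0.30 and 1.74 ± 0.37, and Itgb5 at 913 ± 129 against 4380.0 ± 419.

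**Figure D4:**
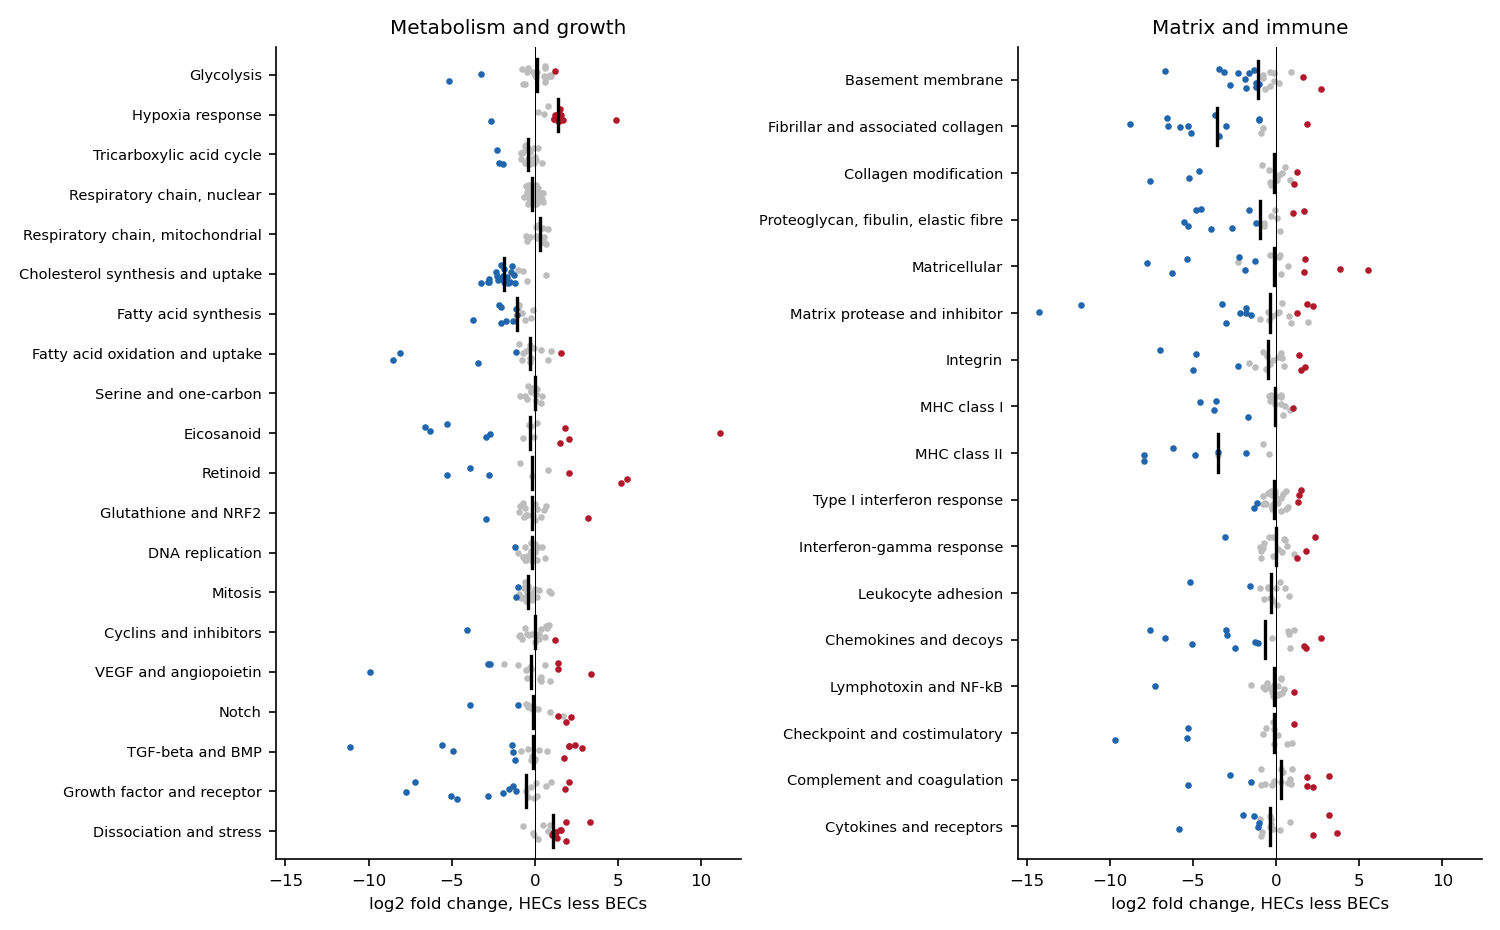
Log2 fold change of HECs over BECs in tumour-bearing mice for each gene of the metabolic, growth, matrix and immune lists, 1 point a gene, red when called higher, blue when called lower and grey when not called, with the median of the tested genes of each list as a black bar and a thin line at 0. Cholesterol synthesis, fibrillar collagen and MHC class II lie mostly left of 0, and hypoxia and stress genes mostly right of it.

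Growth signals were divided between the groups by ligand. Of 17 genes of the VEGF and angiopoietin families 3 were higher and 3 lower. Beside Vegfa, the placental growth factor gene Pgf was higher at 7711, 5105 and 7675 in HECs and 593, 712 and 668 in BECs, and Angpt2, which loosens vessels through TIE2, at 4950.1, 5232 and 4694 and 1883, 2005 and 1803. The lymphangiogenic ligand gene Vegfc was at 0 in all HEC libraries and 122, 224 and 223 in BECs, at least 63.3-fold lower in HECs, and Vegfd was at 44.1 ± 22.4 against 281 ± 31.2. The receptor genes Kdr, Flt1, Flt4 and Tek all stayed within 2-fold, with Kdr at 0.89 ± 0.08, while the co-receptor gene Nrp1 was lower at 211, 229.9 and 260.1 in HECs and 1792, 1863 and 1248 in BECs. Tip cell genes, active at the front of a sprout, were 5 higher and 7 lower of 17. Esm1 was at 8356, 8441 and 8711 in HECs and 249, 261 and 288 in BECs, and Pdgfb, which recruits pericytes, at 5593, 5435 and 4999 and 1163, 1282 and 1417. On the lower side stood Igfbp3, at 22 ± 7.07 against 155 ± 24, and Unc5b and Nrp1, given above.

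Of Notch genes 3 were higher and 2 lower of 13. The target gene Hes1 was at 1348, 1476 and 1496 in HECs and 292, 382 and 269 in BECs and the ligand gene Dll1 at 2196, 1715 and 2021 and 824, 772 and 700.1, with Dll4 at 194 ± 11.7 against 53 ± 22.3. Both lower genes, Hey1 and Notch2, lost their calls without BEC replicate 2, Hey1 also without BEC replicate 1 and Notch2 without HEC replicate 1 or 2. Of 20 genes of the TGF-beta and BMP list 5 were higher and 6 lower. Among genes known to respond to BMP receptors, Id1, Id3, Smad6 and Smad7 were higher and Id2 did not pass, at -0.10 ± 0.12, with Id1 at 21075, 20409 and 19429.9 in HECs against 4691, 4520.1 and 5164 in BECs, Smad6 at 2986, 3128 and 2767 against 429, 616 and 642, Id3 at 2.05 ± 0.14 and Smad7 at 2.84 ± 0.40. The activin chain gene Inhba was higher too, at 1453 ± 68 against 435 ± 28.4. The lower genes of this list were receptor genes, Tgfbr3 at 592 ± 69.9 against 1556 ± 94 and Bmpr1a at 0 in HECs against 441 ± 38.6, and ligand genes, Bmp2, Bmp6, Tgfb3 and Inhbb. Of other growth factors and receptors 9 were lower and 2 higher of 19. Hbegf, an EGF receptor ligand, was higher at 5156 ± 215 against 1458 ± 85.3, and lower were Igfbp7 at 9.24, 18.7 and 43.2 against 4107, 5523 and 5914 and the HGF receptor gene Met at 1007 ± 71.5 against 2915 ± 43.4.

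Few proliferation genes passed the rule, which 11.3% of all genes passed as higher and 10.7% as lower. All HEC libraries lay below all BEC libraries for 13 of 25 replication and 16 of 23 mitosis genes, and above for 3 and 2. Over all genes these shares were 31.8% below and 30.9% above. Of 25 DNA replication genes 1, Fen1, was lower and none higher, with a median of -0.19, and Fen1 lost its call without any HEC library and without BEC replicate 1 or 2. The polymerase gene Pole, at -0.98 ± 0.07, became called lower without HEC replicate 1 or BEC replicate 3. Of 23 mitosis genes the kinase genes Plk1 and Bub1b were lower, Plk1 at 9032, 8833 and 8269 in HECs and 18551, 18791 and 19861 in BECs and Bub1b at 5570.0, 5583 and 5716 and 11699, 11373 and 11276. The groups did not overlap for either. The median of the mitosis list was -0.39, and 2 of its genes became called higher without BEC replicate 1 and 1 without HEC replicate 1 or BEC replicate 2. Mki67, the proliferation antigen, was at 19194, 18579.6 and 19973 in HECs and 22384, 18313 and 8112 in BECs, so BEC replicate 3 lay apart from the other libraries. Among cyclins and inhibitors the senescence-associated inhibitor gene Cdkn2a was lower at 137, 156 and 144 against 1692, 2400.0 and 3176, and Cdkn1c was higher at 191 ± 32.3 against 81 ± 20.7, with 2 lower without BEC replicate 1, of 17. Genes that respond within minutes to stress or to tissue dissociation were higher for 10 of 17 and lower for none, or 1 without HEC replicate 1, with a median of 1.07. Jun was at 44887, 44943 and 43747 in HECs and 17283, 17598 and 18049 in BECs, Junb at 10482 ± 309 against 2874 ± 89.6, and Dusp1 at 15208 ± 75.4 against 4066 ± 296. Several genes described as higher here, among them Il6, Csf3 and Ptgs2, are known to respond to the same stimuli, and the part of dissociation in them was not tested.

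Antigen presentation differed by class. MHC class II genes, which present peptides to CD4 T cells, were lower in HECs for 6 of 9 and higher for none, with a median of -3.52. The invariant chain gene Cd74 was at 18.5, 104 and 122 in HECs and 934, 933 and 939 in BECs, H2-Ab1 at 4.62, 15.8 and 8.85 and 320.0, 332 and 234, and the processing protease gene Ctss at 21.4 ± 19.4 against 5386 ± 1900.5. These genes are also those of macrophages, whose summed markers moved with them as given above, and the part of those cells was not tested. MHC class I was 1 higher and 4 lower of 17. The light chain gene B2m and H2-D1 did not pass, at 0.86 ± 0.04 and 0.56 ± 0.09. H2-Q4 was called at the limit, at 1.00 ± 0.09, and not without HEC replicate 3 or BEC replicate 1, while the non-classical genes H2-T23 and H2-Q7 were lower at 98.3 ± 33.3 against 1198 ± 235 and 35.3 ± 12.6 against 472 ± 64.5. Reads of these near-identical genes can be split between them in counting. The immunoproteasome gene Psmb8 was at 359 ± 29.6 against 1161 ± 188.

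Interferon-stimulated genes were called in both directions. Of 27 type I genes 3 were higher and 2 lower (11.3% and 10.7% of all genes), with a median of -0.13. All HEC libraries lay above all BEC libraries for 8 of them and below for 12 (30.9% and 31.8% of all genes). The transcription factor gene Irf7 was at 11362, 12246 and 12114 in HECs and 3349.5, 4516 and 4662 in BECs, the tetherin gene Bst2 at 51693, 51473 and 51844 and 17945, 20128 and 22908, and Mx2 at 1.33 ± 0.10. In contrast Ifit1, whose product binds viral RNA, was at 4548, 4975 and 4874 in HECs and 10924, 10415 and 10076 in BECs. For Irf7, Bst2 and Ifit1 the groups did not overlap. Interferon-gamma genes were 3 higher and 1 lower of 18, or 2 lower without HEC replicate 2 or 3 or BEC replicate 1. The guanylate-binding protein genes went apart, Gbp4 at 1084 ± 84.3 against 214 ± 13.7 and Gbp5 at 245 ± 54.2 against 2078 ± 207. The feedback inhibitor gene Socs1 was higher at 534 ± 54.9 against 226 ± 49.7, and Cd274, which encodes PD-L1, was at 0.62 ± 0.12.

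Of 14 leukocyte adhesion genes 2 were lower and none was higher, against 10.7% and 11.3% of all genes. Sele and Selp, which encode selectins, and Icam1 and Vcam1, which encode integrin ligands, ranged from -0.32 ± 0.10 to 0.07 ± 0.09. Jam2, a junctional adhesion molecule, was lower at 13.9, 16.8 and 21 in HECs against 542, 673 and 673 in BECs, and Glg1 at 6361, 6414 and 6578 against 20287, 19222 and 17499.9. Chemokines and their decoy receptors were 3 higher and 8 lower of 16, or 5 lower without BEC replicate 2. Cxcl10, which draws activated T cells, was at 32424, 32527 and 32448 in HECs and 9259, 9149 and 9446 in BECs, the neutrophil attractant gene Cxcl2 at 4082, 3929 and 4094 and 1240.2, 1280.0 and 1340.0, and the scavenging receptor gene Ackr3 at 1756, 1613 and 1829 and 243, 311 and 258. Lower were the monocyte attractant gene Ccl7 at 343, 448 and 339.8 against 3095, 2893 and 2734, Cxcl16 at 15.7 ± 1.64 against 536 ± 93.1, and Cx3cl1, which lost its call without BEC replicate 2. Cxcl12 and Ccl2 stayed within 2-fold, at 0.75 ± 0.17 and -0.25 ± 0.08.

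Of 18 cytokine and receptor genes 3 were higher and 5 lower, against 11.3% and 10.7% of all genes. Csf3, which encodes G-CSF, was at 3232, 3379 and 3042 in HECs and 253, 212 and 284 in BECs, a log2 fold change of 3.69 ± 0.17 with an adjusted p of 6.95e-108. Il6 was at 149, 186 and 177 and 30.6, 48.2 and 30.5, and Csf2, which encodes GM-CSF, at 104, 105 and 71.9 and 15.8, 15.2 and 0. The groups did not overlap, though the BEC values of the latter pair were low. The lower genes included the receptor gene Il1r1 at 926 ± 12.5 against 1973 ± 150.2 and Ifnar1, which lost its call without HEC replicate 3 or BEC replicate 1. Lymphotoxin and NF-kB genes, which maintain high endothelium, had 1 higher and 1 lower of 17, with the receptor gene Ltbr at 10019 ± 205 against 9345 ± 398. The higher gene, Traf1, lost its call without HEC replicate 2 or BEC replicate 1, and 2 genes were lower without HEC replicate 1 or 3. Tnfrsf11a, the RANK gene, was at or under the floor in HECs against 219 ± 81.4 in BECs. Checkpoint and costimulatory genes were 1 higher, or 2 without HEC replicate 1, Tnfsf9 at 1169.5 ± 88.7 against 562 ± 40.8, and 3 lower, Vsir at 20.5 ± 11.6 against 864 ± 388, Cd86, at 0 in HECs, and Icosl, of 12.

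Complement and coagulation genes were 4 higher and 3 lower of 19. Thrombomodulin, Thbd, which turns thrombin towards anticoagulant protein C, was at 65886, 64796 and 66313 in HECs and 17844, 18078 and 18203 in BECs, a log2 fold change of 1.86 ± 0.05. Plat, given above, and Cd46, at 3.18 ± 0.61, were among the other higher genes. The complement component gene C3 was lower at 2781, 2429 and 2607 against 7202, 7703 and 6987, and the inhibitor gene Serping1 at 31.6 ± 14.9 against 219.5 ± 188.

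The same comparison in mice without tumours set LN HECs against BECs of the fat pad and shares no library with the one above. Without tumours 3165 of the 18511 genes compared were called higher in HECs and 2800 lower. Of the 2081 genes higher in HECs of tumour-bearing mice 1143 (54.9%) were also called higher without tumours, 818 were not called and 120 were called lower. Of the 1975 lower genes 1122 (56.8%) were called lower, 735 were not called and 118 were called higher. A test of the difference between both contrasts, the interaction, was called positive for 2069 (11.2%) and negative for 2240 (12.1%) of all genes. It was positive for 538 and negative for 250 of the higher genes, and negative for 555 and positive for 316 of the lower genes. Across genes the 2 contrasts correlated at r = 0.50, as a description.

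Cholesterol synthesis differed in both states but more with tumours for part of the list. In mice without tumours 13 of the genes that passed the filter were lower in HECs, with a median of -1.20, and the interaction was called negative for 9 and positive for 1. Hmgcs1 had a log2 fold change of -0.25 without tumours and an interaction of -1.79 ± 0.38. Hypoxia genes were higher for 7 in mice without tumours, Adm and Ndrg1 by more than with them, with interactions of -2.06 ± 0.15 and -2.67 ± 0.11, whereas Egln3 and Vegfa were at -0.18 and -0.31 without tumours and had interactions of 1.56 ± 0.12 and 1.72 ± 0.11.

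The genes that respond to BMP receptors had other values in mice without tumours. Id1 was at 0.11, Smad6 at -0.68 and Smad7 at -0.69 without tumours, with interactions of 1.97 ± 0.10, 3.07 ± 0.20 and 3.53 ± 0.57. Csf3, at -0.73 without tumours, had an interaction of 4.42 ± 0.23, and Hes1 at -0.90 had one of 3.09 ± 0.20. Matrix genes were mixed. In the basement membrane list 12 genes were lower in HECs without tumours, and the interaction was positive for 6 and negative for 4, while in the proteoglycan list it was positive for 10 and negative for 3. Bgn and Fn1 were at -7.88 and -3.75 without tumours, larger in size than with them, with interactions of 2.36 ± 0.21 and 1.86 ± 0.18. Nid1 was at -0.70 and had an interaction of -1.11 ± 0.11.

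Several immune gene lists shifted between the states. MHC class II genes had a median of -0.10 without tumours, 2 were lower and 1 higher, and the interaction was negative for 6. Summed myeloid markers were 115 to 137 CPM in BECs of mice without tumours and 1735 to 2432 with them. In the type I interferon list the interaction was negative for 8 and positive for none. Ifit1, near balance without tumours at 0.64, had an interaction of -1.76 ± 0.11, and Cxcl10, higher in HECs in both states, was at 2.91 without tumours and had one of -1.10 ± 0.09. Alox12 and Cyp26b1 were higher in HECs in both states, by 8.39 and 2.52 without tumours, and their interactions were 2.72 ± 0.28 and 3.01 ± 0.15.

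**Figure D5:**
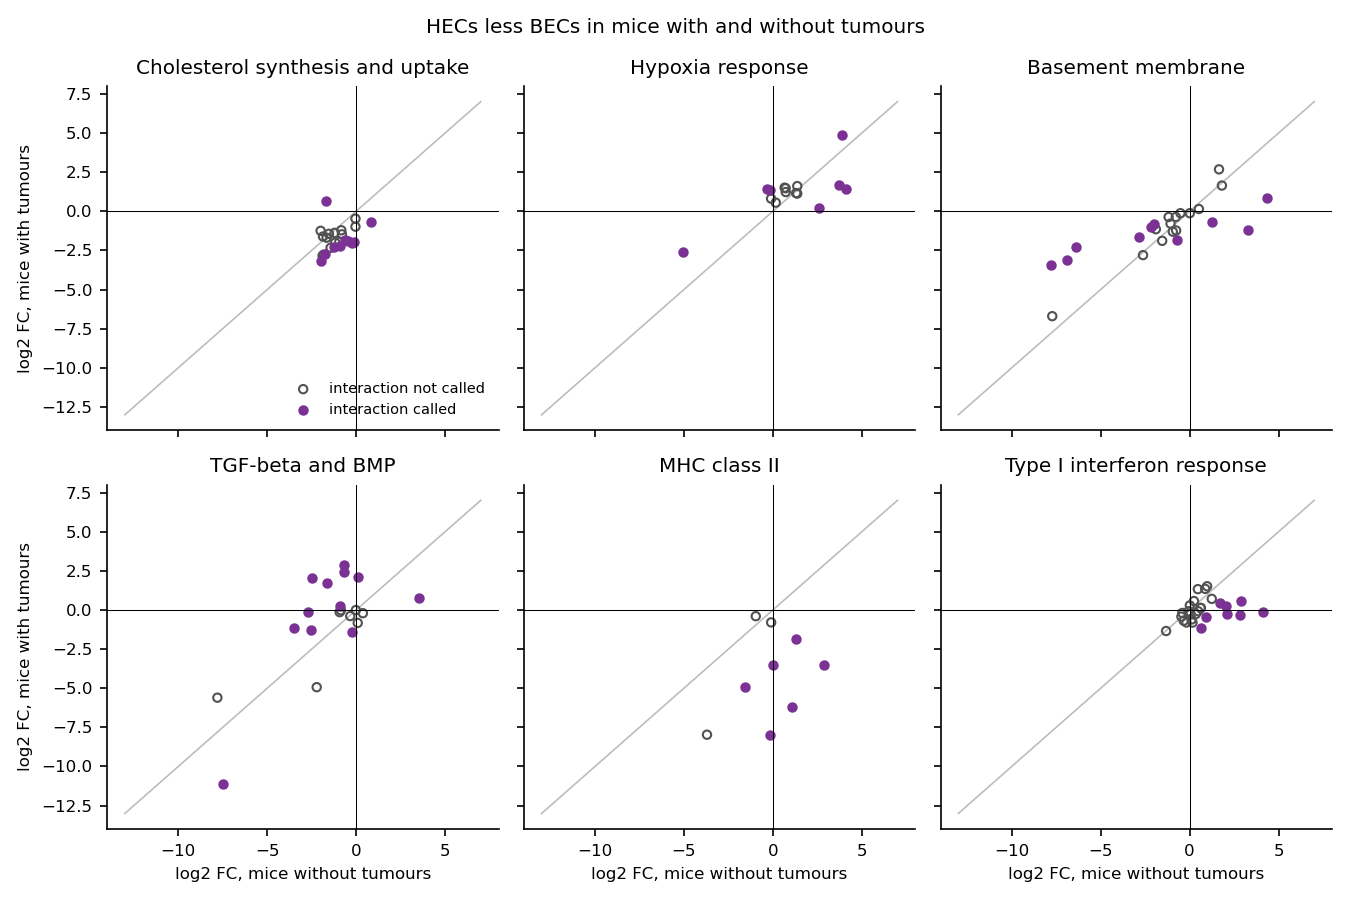
Log2 fold change of HECs over BECs in mice with tumours against the same in mice without tumours for the genes of 6 lists, with genes whose interaction was called filled and the line of equal change in grey. Points of the TGF-beta and BMP list lie above the line for Id1, Id3, Smad6 and Smad7, and those of MHC class II and of several type I interferon genes below it.

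Exons of Acss2, Adamts9, Ankrd37, Bmp6, Bmpr1a, Bnip3, CT010467.1, Car9, Cd274, Cd46, Cd74, Cdkn1c, Col15a1, Col4a1, Col4a2, Csf1r, Csf2, Ctsb, Ctsd, Cxcl10, Cxcl16, Cyp51, Dll1, Dll4, Dusp1, Egfl7, Fbn1, Fdft1, Fdps, Fen1, Fn1, Gbp4, H2-Q4, Higd1a, Hmga2, Hmgcs1, Icam1, Idi1, Igfbp7, Irf7, Itga10, Jun, Junb, Klk8, Krt8, Lox, Loxl2, Lss, Mmp12, Ndrg1, Neat1, Nid1, Notch2, Nptxr, Nr2f2, Nrp1, Pcolce, Plk1, Pole, Prelp, Psmb8, Ptgis, Ptgs1, Rarb, Rgs16, Scd2, Selp, Slc2a1, Spns2, Tagln, Tbxas1, Tgfb3, Tgfbr3, Thbs1, Tm7sf2, Tnfsf9, Tnxb and Vcam1 share bases with those of another annotated gene in GRCm38, and since whether strand was used in counting is not given in the sources used here, reads of such pairs could not be told apart.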

How the data were processed

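RNA of HECs and BECs from mice with and without EO771 tumours, 3 libraries a group, was sequenced. The authors aligned reads to GRCm38 with STAR and counted fragments with featureCounts, and the deposited endothelial table holds values treated here as estimated counts: they are whole numbers, but low values come in steps of 3.72 to 3.75 in every library, so 1 unit is not 1 fragment, and how this scale arose is not given in the sources used here. The strand setting and the treatment of duplicates are not given either. The deposited values of the EO771 cultures are raw counts, used only for genes of the epithelial list as CPM, counts scaled by library total. The methods and the labels name different kits for library construction and for RNA extraction.

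Genes with a mean value of at least 10 were fitted with DESeq2 1.42.0 in R 4.3.3 on the 12 endothelial libraries with 1 coefficient a group, the study's own thresholds (2-fold, Benjamini-Hochberg adjusted p under 0.05) and Wald tests for HECs over BECs with tumours, without tumours, and for the difference between both. Adjusted p-values were made over all genes, and 65 genes that DESeq2 set aside as outliers had none. Normalised counts are values divided by size factors. A level at or under 3 normalised counts was taken as the floor. The test was checked on simulated data. The steps leave values under about 4 units unresolved. Genes were placed on GRCm38 by the GENCODE vM21 annotation.

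The comparison, gene lists and markers were chosen with earlier results of these data known. Named genes are the 4 markers, the 10 higher and 10 lower called genes with the largest test statistic, difference in mean and fold (lower group over 10 normalised counts), and in each list up to 3 higher and 3 lower with the largest test statistic. Some genes that this rule names are not reported here. Chosen after their values were seen were Acss2, Adgre1, Adm, Alox5, B2m, Bmp2, Bmp6, Bnip3, C1qa, C1qb, Car9, Ccl2, Ccl21a, Cd274, Cd46, Col15a1, Col18a1, Col4a1, Col4a2, Cs, Cxcl12, Cyp51, Ddit4, Dhcr7, Ebp, Egln3, Ero1l, Fasn, Fdft1, Fdps, Flt1, Flt4, H2-D1, Higd1a, Hilpda, Hmgcs1, Hpgds, Hsd17b7, Hspg2, Icam1, Id2, Idi1, Inhba, Kdr, Krt8, Lama4, Lama5, Lss, Ltbr, Mki67, Msmo1, Mvd, Mvk, Nsdhl, Pdk1, Pfkl, Pmvk, Pole, Ptgis, Ptprc, Sc5d, Sele, Selp, Slc27a4, Slc2a1, Smad7, Sqle, Srebf2, Tek, Tgfb3, Thbs1, Tm7sf2, Vcam1 and Vtn. Alternatives were edgeR 4.0.16, TMM scaling, other filters and thresholds, division by the step, the 6 tumour libraries alone, a replicate block, and leaving out each library.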

Additional observations from a re-analysis of the deposited data

Results flagged for a closer look

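For 17 genes named above the call in mice with tumours was opposite to that in mice without tumours, and the test of the difference between both contrasts (DESeq2, HECs less BECs with tumours minus the same without, log2) was also passed. Toward higher in HECs with tumours this difference was 6.54 for Ackr3, 5.79 for Col2a1, 5.64 for Sox18, 4.51 for Id3, 4.28 for Gpihbp1, 4.17 for Dll4, 3.39 for Inhba, 3.35 for Itga2, 2.86 for Spns2 and 2.32 for Plau. Toward lower it was -11.93 for Cd36, -6.26 for Apoe, -4.23 for Gbp5, -3.50 for Cd68, -2.73 for Lcn2 and -2.49 for Gp9. For Hpgd the fitted difference was -12.92, which gives no size because BECs without tumours were at 0. The size for Cd36 is poorly resolved too, since BECs without tumours were at 4.28 ± 4.08 normalised counts, near the floor. Apoe, Cd36 and Cd68 are also known from macrophages. Summed myeloid markers, which include Cd68 itself, were 115 to 137 CPM in BECs without tumours and 1735 to 2432 CPM with them. The part of macrophages in these values was not tested. Over all genes 120 of the higher and 118 of the lower calls were opposite in mice without tumours. The test of the difference was passed for all 120 and all 118, so passing it adds nothing to the opposite calls.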

How the results depend on the processing

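The comparison was recomputed under other tests, scalings, filters and sample sets. Against a log2 fold change of 1, 687 genes were higher and 1001 lower, and the interaction was positive for 814 and negative for 962. By the adjusted p alone these counts were 4801, 5256, 4246 and 4397. Leaving out each library gave 1877 to 2062 higher and 1793 to 2048 lower genes, and 1966 to 2042 positive and 2082 to 2232 negative interactions. With edgeR 1859 genes were higher and 1961 lower. Over the gene lists edgeR gave 87 higher and 208 lower members, within 2 of the main count in each of the 52 lists. TMM scaling moved no list median by more than 0.0263 and edgeR none by more than 0.3583. The largest edgeR shift was that of the T cell list, with 2 tested genes. Of 3624 values of the 260 named genes, 108 lost and 8 gained the call, and 6 changed sign, all of genes not called. Mki67 was -0.083 without BEC replicate 3 and 0.54 without BEC replicate 1. Icam1, near 0, was -0.0031 with edgeR, -0.0027 with TMM scaling, -0.0022 with the 6 tumour libraries alone, and -0.0462 to 0.0806 when a library was left out. The 8 gains were of Ebp and Pole, near the 2-fold limit.

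Deviations of HEC and BEC libraries of equal number correlated at 0.028, 0.013 and -0.021, and not every library correlated best with its own number, so the numbers were not taken as pairs. With the replicate block 2077 genes were higher and 1986 lower, the interaction was positive for 2012 and negative for 2212, and 1 named gene changed its call. Depth limits statements on genes near 0, where 234 higher and 551 lower genes have a group at or under the floor.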

Other observations

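In 10 cases a gene was at or under 3 normalised counts in 1 library of a group and at 300 or more in the other 2. They fell on BEC replicate 1 for 2 genes, BEC replicate 2 for 2, BEC replicate 3 for 3 and HEC replicate 3 for 3. Eif3j2 was at 0 in BEC replicate 1 and at 1208 and 1738 in the other BEC libraries. Tmem254a was at 0 in BEC replicate 1 and at 1041 and 1176 in the others.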
